A study of Sus scrofa with 48 samples.

Results

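The circRNAs of PRKAR1A, the gene of the type I alpha regulatory subunit of protein kinase A, were examined in extracellular vesicles of boar seminal plasma (SPEVs). The members were the back-splice junction from exon 7 to exon 5 of the gene, on chromosome 12 of Sscrofa11.1, and every other junction on that chromosome that shared its start or its end. The rule gave 2 of the 17379 circRNAs listed for all libraries. The main junction was chosen by its mean level over all 24 long RNA libraries, in which it ranked 2 of all circRNAs, so its abundance is a description and not a finding. The rule made no use of the contrast between boars of high and low sperm motility, although it was set with earlier results of these data known.

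SPEVs were isolated by ultracentrifugation from seminal plasma of sexually mature male boars, Yorkshire by the labels and called large white in the study's methods, and 12 boars of high sperm motility (H group) and 12 of low sperm motility (L group) gave 1 long RNA library each. The labels name no allele, agent or treatment that separates the groups, and motility itself was the trait by which the boars were grouped. Another 24 libraries, again 12 per group, held the small RNA of such vesicles. Vesicles of seminal plasma come from several glands and from the testis and epididymis, so that the source cells of a circRNA were not observed, and more RNA per vesicle and more vesicles from one source cannot be told apart.

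Protein kinase A is held inactive by a dimer of regulatory subunits that binds catalytic subunits. When adenylyl cyclases raise cAMP, the regulatory subunits bind it and set the catalytic subunits free, and in sperm this pathway drives flagellar beating and capacitation. Anchoring proteins tether the kinase through its regulatory subunits, phosphodiesterases degrade cAMP, and inhibitor peptides block the freed kinase. A circRNA is made when the end of an exon is spliced back to the start of the same or an earlier exon, which leaves an RNA circle without free ends. Reads that cross this back-splice point are found on the circle and not on the linear mRNA, and they were what the counts of these libraries hold.

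PRKAR1A lies at chr12:11662344-11681490 on the minus strand, and the transcript used here has 11 exons, of which 10 hold coding sequence. Both members ended with exon 7 and both used annotated exon edges. The main junction joined the end of exon 7 to the start of exon 5, with exon 6 (chr12:11670120-11670166) between them, and its spliced circle had 268 nt. The longer junction joined the same end of exon 7 to the start of exon 3 (chr12:11672371-11672541), and with exon 4 (chr12:11671494-11671585) its circle had 531 nt. Beside the 2 members, 1 further junction had both ends in the gene, which closed exon 3 on itself in a circle of 171 nt. All 5 exons were coding and held no untranslated sequence.

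The circle sequences were joined from the annotated exons of the reference, because junction counts do not show which exons lie inside a circle. The complete main circle is given first, read from the first base of exon 5, with the 15 bases on each side of the back-splice point in capitals at its start and its end. The second sequence is the part that only the longer circle has, with exon 4 in capitals. The last 3 show 30 bases across each back-splice point, with the 15 bases after the point in capitals, and they are the stretches that a junction read must cross.
Exons 5 to 7, whole circle: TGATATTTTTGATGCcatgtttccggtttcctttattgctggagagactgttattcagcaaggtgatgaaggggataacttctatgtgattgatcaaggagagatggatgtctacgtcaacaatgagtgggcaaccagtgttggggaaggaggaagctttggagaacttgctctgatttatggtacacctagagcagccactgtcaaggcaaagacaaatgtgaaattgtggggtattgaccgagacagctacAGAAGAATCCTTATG
Exons 3 and 4: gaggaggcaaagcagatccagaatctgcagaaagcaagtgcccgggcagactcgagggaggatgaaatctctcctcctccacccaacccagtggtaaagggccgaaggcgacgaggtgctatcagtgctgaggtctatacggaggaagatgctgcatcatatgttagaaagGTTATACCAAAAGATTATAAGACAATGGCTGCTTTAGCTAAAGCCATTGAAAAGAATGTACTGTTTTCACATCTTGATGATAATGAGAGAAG
Junction of exon 7 to exon 5: agaagaatccttatgTGATATTTTTGATGC
Junction of exon 7 to exon 3: agaagaatccttatgGAGGAGGCAAAGCAG
Junction of exon 3 to exon 3: tcatatgttagaaagGAGGAGGCAAAGCAG
The junctions of both members have the same 15 bases before the back-splice point and differ after it, which is how the counts tell them apart. The 3 circles are bordered in the genome by AG before their first exon and GT after their last.

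**Figure D1:**
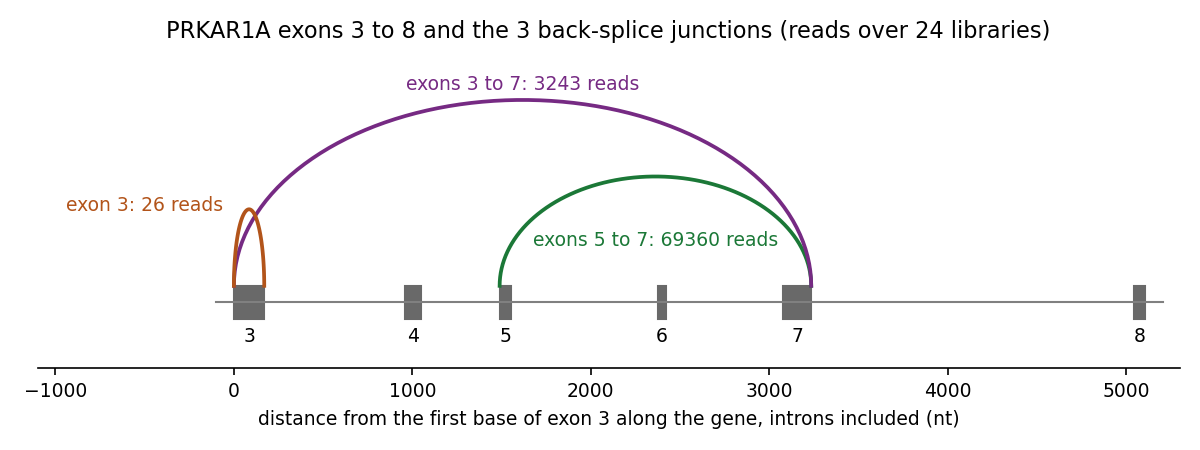
Exons 3 to 8 of PRKAR1A drawn to scale along the gene, with introns, by distance in nt from the first base of exon 3. Arcs join the ends of the 3 back-splice junctions and are labelled with their reads over the 24 libraries; both members share the end of exon 7, and the arc from exon 5 carries 69360 of the reads.

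Exons 5 to 7 run from codon 146 to codon 235 of the 381 codons of the coding sequence, stop codon included, and as background they code for much of the first cAMP-binding domain of the subunit. Exon 3 runs from codon 59 to codon 115 and holds the pseudosubstrate stretch that occupies the catalytic site of the kinase. The longer circle thus carries the sequence of both parts, and the main circle that of the first cAMP-binding domain alone. The 268 nt of the main circle leave a remainder of 1 when read in codons, so that a second lap would be read in another frame. The 531 nt of the longer circle are a multiple of 3, and its 177 codons held 0 stop codons and 4 ATG codons in the frame of the protein. These are properties of the sequence, and translation was not measured.

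The structure of the main circle was compared with that of 14437 circRNAs whose ends both lay on exon edges. Its 268 nt were below the median of 469 nt, and 17.9% of the circRNAs were shorter. Its GC content of 43.7% was close to the median of 44.4%. The intron before exon 5 had 441 nt, against a median upstream intron of 5555 nt, and 1.73% of 14408 circRNAs with an upstream intron had a shorter one. Among the 38 exon-edge circRNAs with reads in all 24 libraries, whose median upstream intron was 11682 nt, it was the shortest. The intron after exon 7 had 1809 nt, against a median of 4756 nt. Both together came to 2250 nt, with a median of 12222 nt, and 4.20% of 14398 circRNAs had less. The longer circle began after an intron of 5040 nt, near the median.

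Introns that flank circularized exons often hold stretches that are reverse complements of each other and can pair. In the introns beside the main circle, blastn found 1 such inverted match, which aligned 240 positions with 71.7% identity. The upstream stretch, chr12:11671138-11671370, ended 85 bases before exon 5, and the downstream stretch, chr12:11669012-11669235, began 70 bases after exon 7. Both are shown on the strand of the gene because they are the pairing candidates nearest to the circle, with their longest run of exact complementarity, 23 bases, in capitals.
Upstream intron: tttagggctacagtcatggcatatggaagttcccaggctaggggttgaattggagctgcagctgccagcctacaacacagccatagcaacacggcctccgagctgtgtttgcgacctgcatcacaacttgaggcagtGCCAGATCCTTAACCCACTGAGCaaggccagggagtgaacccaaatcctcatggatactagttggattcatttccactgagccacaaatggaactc
Downstream intron: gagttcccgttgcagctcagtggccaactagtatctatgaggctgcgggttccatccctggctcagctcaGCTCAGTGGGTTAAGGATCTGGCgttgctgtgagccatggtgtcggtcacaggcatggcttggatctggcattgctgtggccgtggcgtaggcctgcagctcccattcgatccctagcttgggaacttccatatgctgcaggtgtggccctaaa
A match of this kind was common. It was found in 37 of the 38 circRNAs of all 24 libraries (97.4%), where the median identity of the best match was 82.4% and 3 had a lower identity than the PRKAR1A circle. Of 1166 exon-edge circRNAs whose flanking introns added up to 3000 nt or less, 777 (66.6%) had an inverted match, and in 338 (29.0%) it was at least as long. Pairing of these stretches was not measured.

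The main junction carried 69360 of the 72629 junction reads of PRKAR1A, or 95.5%. This share rests on the level by which the junction was chosen and is given as a description. The longer junction carried 3243 reads and the exon 3 circle 26 reads, all in library L2.

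For levels, RPM was used, the junction reads of a circRNA per 1000000 circRNA junction reads of its library. Each circRNA has a single junction, so its length does not enter the value. The library totals lay between 128644 and 610615 junction reads, and the smallest count listed above 0 was 2 to 9 reads, depending on the library. In the H group, the main junction had 1249 reads (H4) to 9205 reads (H3), with a median of 2361. In the L group, it had 1289 reads (L1) to 7055 reads (L3), with a median of 2661. Counting error from these depths was 1.04% to 2.83% of the value per library, for counting alone, since PCR copies of a molecule are not independent.

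The main junction was present in every library at 0.439% to 1.51% of all circRNA junction reads. Over the 24 libraries, its mean was 8866 RPM ± 3256 (SD, n = 24), a coefficient of variation of 36.7%. In the H group it ran from 4385 RPM in H6 over a median of 7874 to 15075 RPM in H3, and the next highest, H1, had 11697 RPM. In the L group it ran from 4431 RPM in L11 over a median of 9612 to 14237 RPM in L5, followed by L3 with 12924 RPM. The 2 ranges overlapped over nearly their whole length, with high and low libraries in both groups. The 95% Wilson intervals, which cover counting error in 1 library only, were 4160 to 4623 RPM in H6 and 14772 to 15384 RPM in H3.

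**Figure D2:**
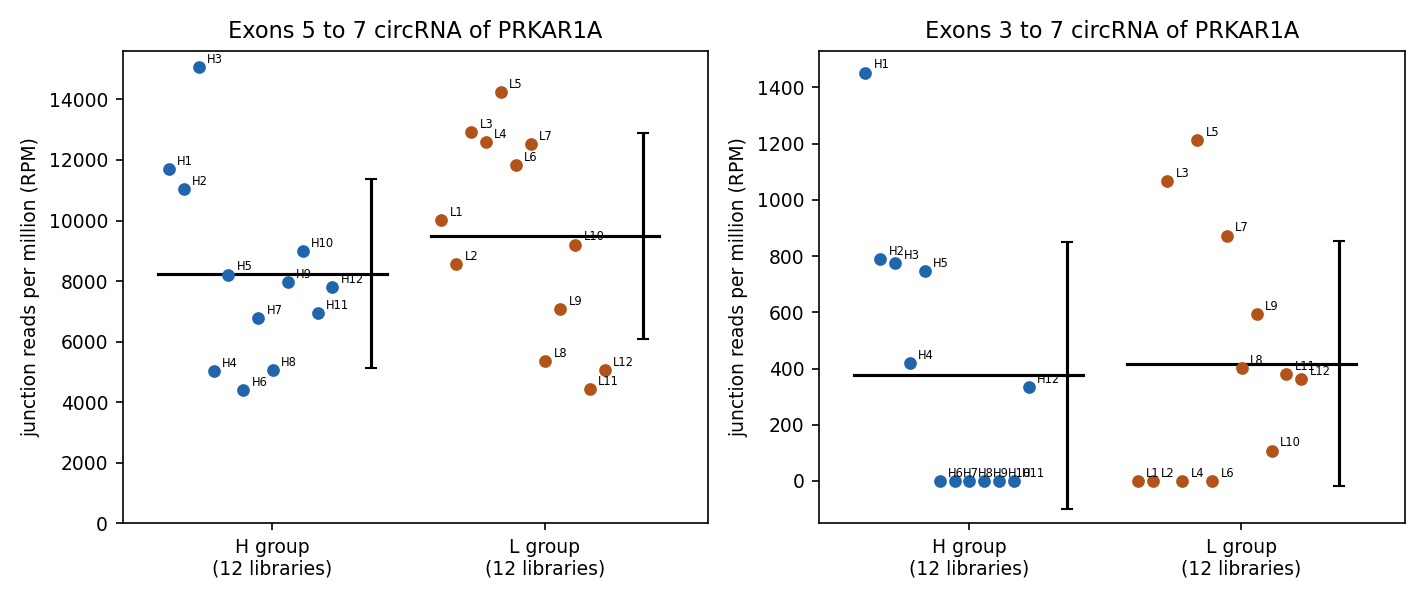
RPM of the exons 5 to 7 circRNA (left) and of the exons 3 to 7 circRNA (right) in each of the 12 H and 12 L libraries, 1 point per library with its label. The horizontal line is the group mean and the bar beside it the SD; on the left the H libraries sit between 4385 and 15075 RPM and the L libraries between 4431 and 14237 RPM, and on the right 6 H and 4 L libraries are at 0.

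It was the most abundant circRNA of the library in 7 libraries (H1, H2, H3, H5, L4, L5 and L7), was among the first 5 in 18, and had its lowest rank, 10, in H8 and L11. The circRNA directly above it in mean level, of PTGES3 (chr5:22008784-22009750), a co-chaperone and prostaglandin E synthase, had 10576 RPM ± 2405 (SD, n = 24). The main PRKAR1A junction exceeded it in 8 of the 24 libraries. The ratio of both levels ran from 0.432 in L11 to 1.61 in H1 and was 0.885 ± 0.375 for the H libraries and 0.829 ± 0.271 for the L libraries (SD, n = 12 each). The circRNA directly below, of LRCH1 (chr11:20710449-20719541), had 6939 RPM ± 2511 (SD, n = 24), and the main PRKAR1A junction exceeded it in 13 libraries. The order of these 3 circRNAs thus changed from boar to boar, and their means differed by less than 1 SD from one to the next.

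Among the 40 circRNAs with reads in all 24 libraries, the coefficient of variation of RPM ran from 22.7% to 88.2%, with a median of 52.1%. At 36.7%, that of the main PRKAR1A junction was the 6th lowest.

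To ask whether the circRNA differed with sperm motility, the L group was compared with the H group in edgeR's quasi-likelihood test over the 956 circRNAs that passed filterByExpr. The main junction had 8245 RPM ± 3111 for the H libraries and 9487 RPM ± 3412 for the L libraries (SD, n = 12 each). Its log2 fold change was 0.24 with a standard error of 0.203, and the 95% interval ran from -0.17 to 0.64, which is 0.891-fold to 1.56-fold. It did not pass the test (P = 0.247, adjusted p = 1.00, edgeR with Benjamini-Hochberg adjustment). A smaller P value was found for 5.33% of the 956 circRNAs. This is fewer than evenly spread P values would give, so that this place does not mark the circRNA out. Of the 956, 3 (0.314%) were called, which took an unadjusted P under 0.05 with a change to 1.5-fold or more, or to 0.67-fold or less. The standard error, derived from the log2 fold change and the test statistic, was 0.203 against a median of 1.35. In this fit 0.105% of the circRNAs had a smaller one, so that the interval was among the narrowest. The width depended on the fit: without a filter the standard error was 0.412 and the interval -0.44 to 1.18. The edgeR exact test gave the same log2 fold change with P = 0.662. The median log2 fold change of all 956 circRNAs was 0.14, and 0.01 with library totals in place of TMM, where the main junction had 0.17.

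The mean difference of 1242 RPM, 15.1% of the H mean, was also within the spread of the libraries in a two-sided permutation test with 100000 resamples (p = 0.357). Leaving out H3, the highest library, gave the largest log2 fold change of all 24 such fits, 0.41 (P = 0.0559), and leaving out L3 the lowest, 0.16. Without L3, L8, L11 and L12, the L libraries with the most circRNAs, the difference was 2513 RPM (p = 0.0699, permutation test), and the log2 fold change was 0.29.

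**Figure D3:**
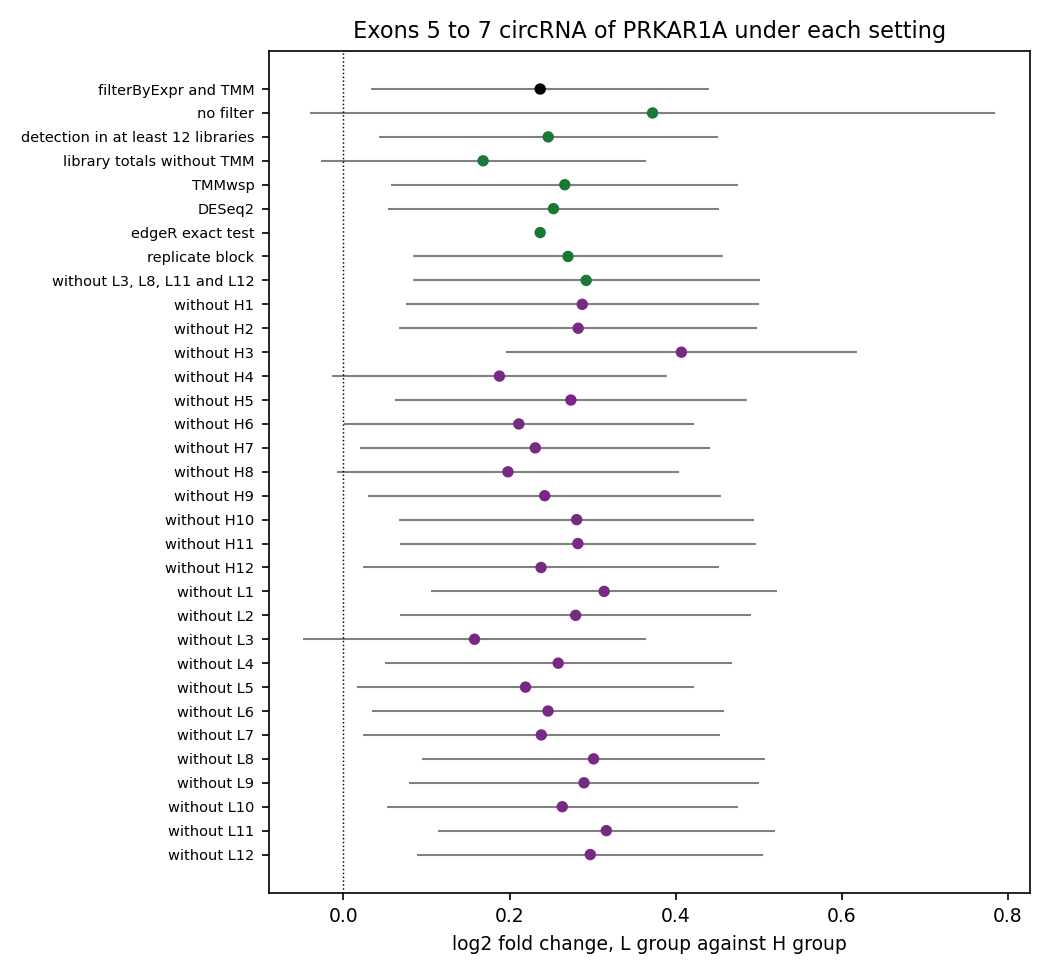
Log2 fold change of the exons 5 to 7 circRNA, L against H group, under filterByExpr with TMM (black), 8 other settings (green) and with each of the 24 libraries left out (purple). Bars are 1 standard error, which the exact test does not give; all values are above 0, from 0.16 without L3 to 0.41 without H3.

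The longer junction was seen in 14 libraries, 6 of the H group (H1, H2, H3, H4, H5 and H12) and 8 of the L group (L3, L5, L7, L8, L9, L10, L11 and L12). Where it was seen it had 35 reads (L10) to 583 reads (L3), with a median of 184.5. In RPM it reached 1453 in H1 and 1212 in L5, and the group means were 376 ± 475 for the H libraries and 417 ± 436 for the L libraries (SD, n = 12 each). The frequencies of 6 of 12 and 8 of 12 libraries did not pass a two-sided Fisher's exact test (p = 0.680). In the edgeR test, its log2 fold change of 0.45 had an interval from -2.18 to 3.08, or 0.221-fold to 8.45-fold (P = 0.735, adjusted p = 1.00). The interval was wide and left large changes in either direction possible. The value was 0.10 with library totals in place of TMM and 0.02 without L3, L8, L11 and L12. The exon 3 junction did not pass the filter and was not tested.

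In the 14 libraries with reads it had 1.17% (L10) to 12.4% (H1) of the reads of the main junction, with a median of 7.87%, and the lowest but 1 was 4.29%. In the other 10 libraries the main junction had 1289 to 3549 reads and the longer junction was listed at 0. A junction was listed only where both circRNA callers reported it, so a 0 says that it was not listed and not that it was absent. The reads of the longer junction, where present, were 0.347 to 6.27 times the median of all circRNAs detected in the same library (median 2.60). By mean RPM over all 24 libraries it ranked 389 of the 17379 circRNAs. Most of the 96 other circRNAs with reads in 14 libraries had a lower smallest count than the longer junction. Over these 96, the median count where present had a median of 107.75 reads, against 184.5 for the longer junction. Their lowest count above 0 had a median of 21 reads, and in 24 (25%) it was at least the 35 reads of the longer junction.

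The share of the main junction among the PRKAR1A circRNA reads of a library put both on one scale. Depth and the listing of low counts still enter it, since a share of 100% can come from a longer junction that was not listed. It ran from 88.95% in H1 to 100% in the libraries without another junction. The group means were 96.4% ± 4.09 for the H libraries and 95.5% ± 3.54 for the L libraries (SD, n = 12 each), and their difference of -0.945 percentage points was within the spread (two-sided permutation test, p = 0.545).

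Because RPM is a share of all junction reads, the level of an abundant circRNA can move with what else a library holds, and this was examined for 2 quantities. Against the number of circRNAs detected, Pearson's r of the main junction was -0.37 (p = 0.0735, adjusted p = 0.147) and Spearman's rho -0.27 (p = 0.194, adjusted p = 0.367) over 24 libraries in permutation tests. Without the 2 libraries farthest from the median, L12 and L8, r was -0.18. Within the H group r was 0.07 (p = 0.834) and within the L group -0.73 (p = 0.00593, permutation test, n = 12), where rho was -0.58 (p = 0.0523). The difference between these r values, -0.80, had p = 0.0564 when the group labels were permuted 20000 times, and without L8 and L12 the L group gave r = -0.58 (p = 0.0801, permutation test, n = 10). The L libraries with the most circRNAs were L12, L8 and L11 with 5716, 4255 and 4118, and their main junction had 5066, 5361 and 4431 RPM, the lowest values of the L group. L3, with 3377 circRNAs, went against this with 12924 RPM. Against the library total of junction reads, r was -0.18 (p = 0.407, adjusted p = 0.407) and rho -0.19 (p = 0.367) over 24 libraries in permutation tests, 0.15 within the H group and -0.49 within the L group, and -0.34 without H3 and L12.

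**Figure D4:**
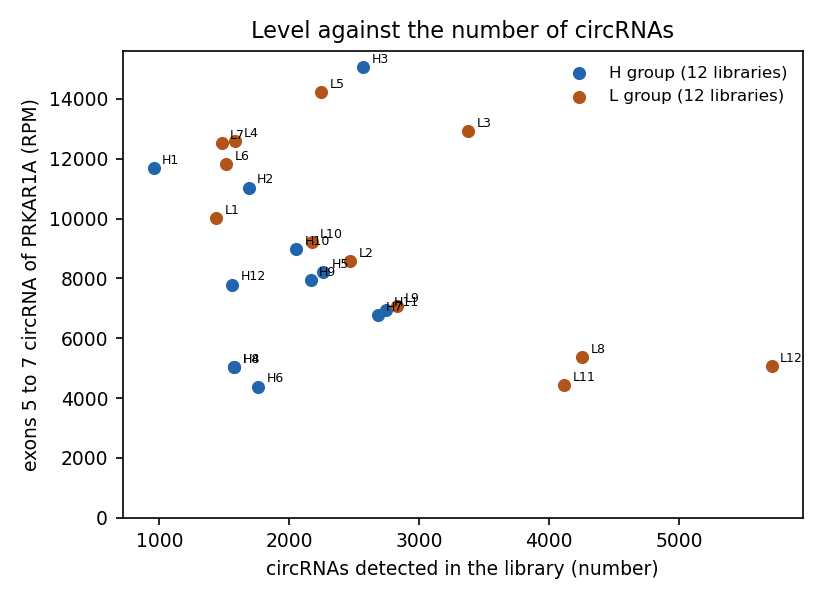
RPM of the exons 5 to 7 circRNA against the number of circRNAs detected in the library, 1 labelled point per library, H group in blue and L group in brown. L8, L11 and L12 lie at the lower right with 4431 to 5361 RPM, and the H libraries, with 956 to 2742 circRNAs, show no trend (r = 0.07).

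The circRNAs whose levels across the 24 libraries were most like that of the main junction were taken by Spearman's correlation of log2 CPM among the other 39 circRNAs with reads in all libraries. They were those of GORASP2, a Golgi stacking protein, at chr15:77126133-77127562 with rho = 0.45, NUCKS1, a chromatin-associated nuclear protein, at chr9:66406846-66409132 with rho = 0.38, and ELF2, an ETS-family transcription factor, at chr8:87799383-87820356 with rho = 0.32. Within the H and the L group, rho was 0.41 and 0.32 for GORASP2, 0.35 and 0.34 for NUCKS1, and 0.64 and 0.13 for ELF2. The 39 values had a median of -0.08 and ran from -0.63 to 0.45, and 14 were positive. All points share library depth and composition, and the values are descriptions over 24 libraries.

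The rest of the pathway was surveyed with a list of 79 genes, of which 33 had at least 1 circRNA, 117 circRNAs in all. PRKAR1A made up 62.2% of the summed RPM of the list on average, between 44.1% and 77.4% in single libraries. This share, too, rests on the level by which the main junction was chosen and is given as a description. Without PRKAR1A, the list summed to 5370 RPM ± 1705 for the H libraries and 5903 RPM ± 1409 for the L libraries (SD, n = 12 each). Of the 117 circRNAs, 59 had reads in 1 library only and 2 in all 24, the main PRKAR1A junction and 1 of the anchoring protein AKAP11.

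Of the 4 regulatory subunit genes, 3 had circRNAs: PRKAR1A with 3, PRKAR2A with 2 and PRKAR1B with 1. The catalytic subunit genes PRKACA, PRKACB and PRKX had 0 circRNAs in these libraries. Among the 27 genes of anchoring proteins and of sperm proteins that bind them, 10 gave 63 circRNAs, which summed to 3468 RPM ± 1123 for the H libraries and 3608 RPM ± 1398 for the L libraries. The phosphodiesterases had 18 circRNAs from 10 of 16 genes, at 863 RPM ± 677 and 1335 RPM ± 858, and the nuclear targets 22 from 5 of 7 genes, at 902 RPM ± 685 and 773 RPM ± 444 (SD, n = 12 each). The group of adenylyl cyclases, the G protein subunit GNAS and the cyclase-associated protein CAP1 had 6 circRNAs from 3 of 12 genes, 3 of the cyclase ADCY9, 2 of GNAS and 1 of CAP1. The inhibitor peptides had 1 from 1 of 3 genes, and the last group, of cAMP effectors and sperm ion channels, 1 from 1 of 7 genes.

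By mean level, the circRNA after the main PRKAR1A junction was that of AKAP11 at chr11:24732398-24739289, an anchoring protein of the kinase, with 809 RPM ± 425 for the H libraries and 1033 RPM ± 779 for the L libraries, 123rd of all circRNAs. The circRNA of PDE7A, a phosphodiesterase specific for cAMP, at chr4:68845818-68849544 had 571 RPM ± 658 in the H group, with reads in 8 libraries, and 1141 RPM ± 859 in the L group, with reads in 11 (log2 fold change 0.93, SE 0.902). A second AKAP11 circRNA with the same end coordinate, chr11:24729025-24739289, had 725 and 740 RPM in the H and L groups. The longer PRKAR1A junction came 5th on the list, and that of LRBA, a protein of vesicle trafficking counted here with the anchoring proteins, 6th with 299 and 402 RPM. One of CREBBP, the coactivator of the cAMP-responsive factor CREB, at chr3:38483180-38484897, was seen in 4 H and 8 L libraries with 137 and 280 RPM (log2 fold change 1.10, SE 1.53). The 8th place was held by an AKAP13 circRNA (chr7:88163866-88165789), with 104 and 162 RPM in the H and L groups and reads in 4 libraries of each. A CREBBP circRNA at chr3:38483180-38483694 came next, with 113 and 151 RPM and reads in 3 H and 6 L libraries. The 10th, also of CREBBP, at chr3:38470924-38472523, ran the other way, with 219 RPM ± 400 (SD, n = 12) from 3 H libraries and 0 in all L libraries. It is the circ-CREBBP of the study, which reports it higher in the H group by sequencing and by quantitative PCR of SPEVs and sperm. Of the 1603 circRNAs with reads in 3 libraries, 71 (4.43%) were listed in the H group only and 362 in the L group only. The last 3 did not pass the filter.

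Of the 117 circRNAs, 7 passed filterByExpr and 0 were called in either direction by edgeR's quasi-likelihood test, where 0 also had an unadjusted P under 0.05, and DESeq2 called 0 of the 7. Over all 956 circRNAs, edgeR called 3 (0.314%) and DESeq2 8, so that 0 of 7 is near the background. Their median log2 fold change was 0.45, against 0.14 for all 956, and the 5 that were not of PRKAR1A had a median of 0.69. The adjusted p was 1.00 for each of the 7. Without the filter, the quasi-likelihood test called 71 of the 117 (60.7%), which is the share it called of all circRNAs, 60.5%, and nothing was read from it.

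**Figure D5:**
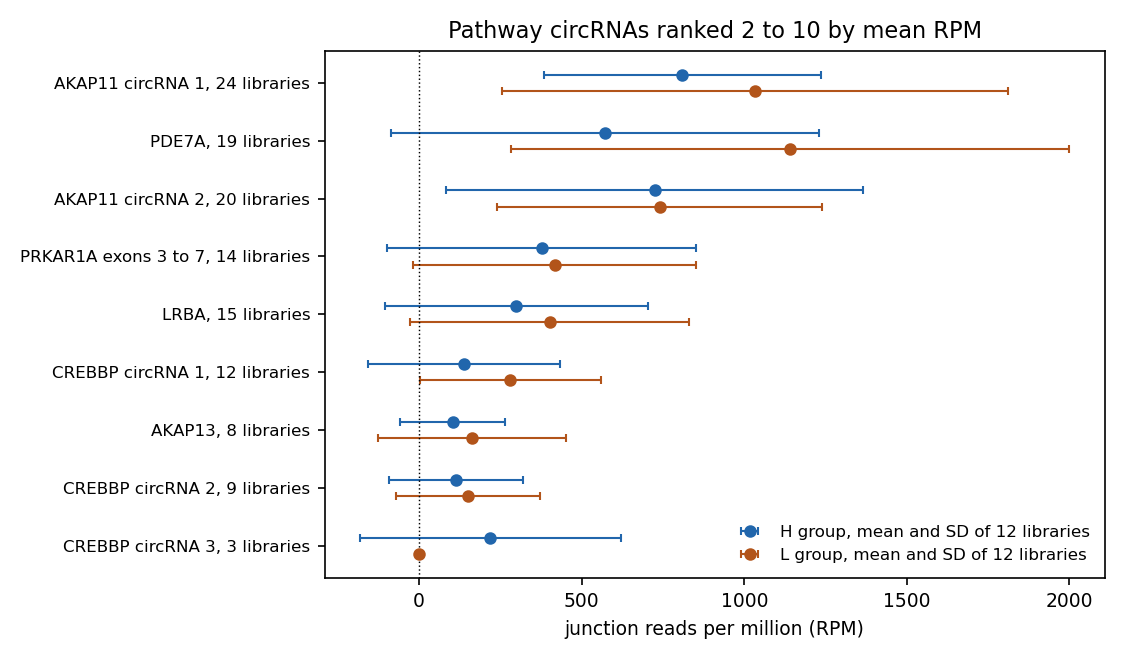
Mean RPM with SD of the pathway circRNAs ranked 2 to 10 by mean level, in the 12 H libraries (blue) and the 12 L libraries (brown), with the number of libraries with reads. The SD bars of both groups overlap for all 9; the main PRKAR1A junction, ranked first at 8866 RPM, is not drawn.

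Mature miRNAs can bind RNA through bases 2 to 8, the seed, and the main circle was searched for matches to the seeds of the miRNAs in the small RNA libraries. These libraries held 4189358 to 9842872 miRNA reads on 344 of the 345 miRNAs listed. Of the 20 most abundant miRNAs, 14 had a mature sequence under the same name in RefSeq, among them let-7c, let-7a, miR-148a-3p, miR-10a-5p and miR-191, and 0 of the 14 had a seed match in the main circle. Over all miRNAs, 263 matched RefSeq by name, and 8 had a seed match in the main circle, at 6 distinct sites. The 3957 exon-edge circRNAs of 200 to 350 nt held a median of 4 distinct sites, and 71.6% held fewer than 6.

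The 2 most abundant of these 8, miR-23a and miR-23b, were picked out after their values were seen. They have the same seed and differ only near their 3′ ends, so that reads may have been split between them. Their mature sequences are shown with the seed in capitals and their shared site in exon 7, at base 218 of the circle, with the match in capitals, because no other miRNAs with a site in the circle were called between the groups.
miR-23a (chr2:65308158-65308178): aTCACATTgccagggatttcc
miR-23b (chr10:27080206-27080227): aTCACATTgccagggattacca
Site in exon 7: caaagacaAATGTGAaattgtgg
The 7 bases of this site occur in 2.81% of the 3957 circRNAs of similar length, in the sequence on the strand of the gene. In the H group miR-23a ran from 192 CPM over a median of 438 to 673 CPM, and in the L group from 234 over a median of 529 to 2608 CPM in L8, with the next L library at 1922 CPM. For miR-23b, the H group ran from 225 over a median of 533 to 755 CPM and the L group from 283 over a median of 587 to 2539 CPM in L8, with the next at 1874 CPM. Both groups overlapped, and the highest L libraries lay far above the rest.

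Both were called higher in the L group in edgeR's quasi-likelihood test over 245 miRNAs, with a log2 fold change of 0.80 (SE 0.293, P = 0.0109) for miR-23a and 0.69 (SE 0.262, P = 0.0135) for miR-23b, and neither passed the adjustment (adjusted p = 0.424 for both). In this test 17 of the 245 miRNAs (6.94%) were called, 13 of them higher in the L group (5.31%) and 4 lower. This balance depended on the fit, with 7 higher and 5 lower in DESeq2 and 1 higher and 6 lower with a replicate block. Without L12, neither was called (log2 fold change 0.45, P = 0.0564, and 0.39, P = 0.0621), and without L8, the log2 fold change of miR-23b was 0.54, below the fold limit. DESeq2 called neither, with 0.43 (P = 0.0571) and 0.37 (P = 0.0651). The edgeR fit with a replicate block also called neither, with 0.45 (P = 0.111) and 0.42 (P = 0.110). Binding of these miRNAs to the circle was not measured.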

How the data were processed

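Long RNA and small RNA libraries of boar SPEVs were used, 12 per group for each kind. Per the file headers and the methods, circRNAs that find_circ and CIRI2 both reported, at 2 or more junction reads, are given as unnormalized counts of reads at their junctions, and the authors also supplied unnormalized read counts of mature miRNAs, made with cutadapt, Bowtie and miRDeep2. The build named in the submitters' processing notes, susScr11, is Sscrofa11.1. The QIAseq kit of the small RNA libraries adds molecular identifiers, and whether they were used in counting is not given in the sources used here. The long RNA kit amplifies 250 pg to 10 ng of RNA per the labels, so that the Wilson intervals of single libraries cover counting error only, while the edgeR intervals cover the spread between boars. In all, 0 columns were without a library and 0 pairs of libraries were identical.

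Counts were fitted in R 4.3.3 with edgeR 4.0.16 (TMM, filterByExpr, quasi-likelihood test) over all circRNAs or miRNAs. Features with an unadjusted P under 0.05 that changed to 1.5-fold or more, or 0.67-fold or less, were called, as in the study. The filter was added here, and without it the fit called 10517 of 17379 circRNAs. Neither fit repeats the study, which reports a number between this count and that of the filtered fit. The cause of that difference was not tested. Single values were compared by permutation tests with 100000 resamples in Python 3.11.15 (NumPy 2.4.6, SciPy 1.17.1, pandas 2.3.3). Exons, introns, circle sequences and miRNA sequences were read from the NCBI RefSeq annotation and genome of Sscrofa11.1 on the strand of the gene, and inverted matches were searched with BLAST 2.17.0 (word size 7, e-value at most 1e-05).

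The members, the list of pathway genes and the tests were chosen with earlier results of these data known. The text names every circRNA of PRKAR1A, the circRNAs directly above and below in mean RPM, the 3 most alike across libraries, the 10 most abundant of the pathway list and any called one, and those of the 20 most abundant miRNAs with a seed match. Alternatives were DESeq2 1.42.0, other scalings and filters, an exact test, a replicate block and leaving out libraries. Replicate numbers 1 to 12 come from the labels and are used in both groups and for both kinds of library, with 1 library of each kind per number, and p-values measure the spread between these libraries.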

Additional observations from a re-analysis of the deposited data

How the results depend on the processing

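The log2 fold change and the RPM difference of the main PRKAR1A junction, the log2 fold change of the longer junction and the share of the main junction kept their direction and did not pass the test under any alternative run. The log2 fold change of the main junction was 0.16 to 0.41 with single libraries left out and 0.17 to 0.37 under the other settings, the RPM difference was 811 to 1863 and up to 2513, the latter without L3, L8, L11 and L12. The longer junction had 0.16 to 0.81 with single libraries left out, 0.02 without L3, L8, L11 and L12, 0.10 with library totals and 0.73 without a filter, and the share differed by -1.63 to -0.62 percentage points. The correlation with the number of circRNAs reversed within the H group (0.068) and passed the test within the L group (-0.73), and that with the library total reversed within the H group (0.15). The 3 circRNAs called became 10517 without a filter, 8 with DESeq2 and 5 without L3, L8, L11 and L12, and 3 to 7 with single libraries left out. The 17 miRNAs called became 36 without a filter, and 7 to 21 with single libraries left out, 7 of them without L12 and 11 without L8. Of the pathway list, 71 circRNAs were called without a filter. The cause of these shifts was not tested.

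The replicate numbers of H and L libraries belong to different boars. The deviations of same-numbered libraries had correlations from -0.05 to 0.19 over 12 pairs, 1 of them above 0.1, and 2 of the 12 correlated best with their own number. The replicate block gave 22 circRNAs called, all higher in the L group, and 7 miRNAs, 1 higher and 6 lower. With the block, the main junction had a log2 fold change of 0.27 (edgeR, P = 0.146), the longer junction 2.29 (P = 0.402), miR-23a 0.45 (P = 0.111) and miR-23b 0.42 (P = 0.110), and the permutation tests within pairs gave p = 0.322 for the RPM difference and p = 0.599 for the share.

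Settings added after the values were seen were the correlations without 2 libraries, the small RNA libraries left out in turn, the settings for miR-23a and miR-23b, and the block for the share. The smallest count listed above 0 was 2 to 9 reads, depending on the library, which limits what a 0 can show.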

Other observations

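The other 6 miRNAs with a seed match in the main PRKAR1A circle were at low levels, and they were named after their values were seen. By mean CPM over the 24 small RNA libraries they were miR-505 with 77.9, miR-205 with 77.7, miR-148b-5p with 34.1, miR-148a-5p with 29.4, miR-132 with 16.4 and miR-7144-3p with 0.00737. The arms miR-148a-5p and miR-148b-5p share a seed and the same site at base 163 of the circle, the site of miR-505 starts at base 137, that of miR-7144-3p at base 95, that of miR-205 at base 66 and that of miR-132 at base 46. None of these sites crossed the back-splice point. Apart from miR-7144-3p, which was not tested, 0 of these miRNAs were called between the groups in edgeR's quasi-likelihood test. Over all 245 miRNAs tested, 17 (6.94%) were called, so that 0 is near the background. The log2 fold change of miR-205, an epithelial miRNA, was 0.57 (SE 0.334, P = 0.0990, adjusted p = 0.591, edgeR with Benjamini-Hochberg adjustment), and the others that were tested had unadjusted P values above this one. The longer circle held seed matches of 17 miRNAs.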
